A study of Mus musculus with 39 samples.

Results

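This comparison set lungs after 12 weeks of mainstream tobacco smoke (MTS) against lungs after 6 weeks of it. Its members were the arrays titled 12 week smoke (4) and 6 week smoke (5), 9 of the 39 arrays of the study, each with RNA from part of the lung of 1 mouse. The mice were male C57BL/6 x CBA F1 hybrids, 8 to 10 weeks old by the labels, with no engineered allele in any group. By the paper's methods this reads as the age at the start of exposure, so the smoke groups also differ in age at death. Smoke mice breathed, nose-only, the smoke of 2 reference cigarettes a day on 5 days a week, a 2 week lead-up included, and were killed 3 h after the last cigarette. The 12 week sham (5) and 6 week sham (5) mice were held in restrainers without smoke for the same times, so that they differ from one another in age and in time of restraint but not in smoke. The 20 mice of the other 4 groups had a further break of 6 weeks. They entered the fit through the common estimate of the spread, the run terms and the choice of tested probes. The numbers m1 to m5 name the mice of a group in accession order and link no mouse to one of another group.

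Cigarette smoke carries aromatic hydrocarbons that bind the aryl hydrocarbon receptor (AhR), which turns on the cytochromes Cyp1a1 and Cyp1b1, and electrophiles that release the transcription factor Nrf2, which turns on genes of glutathione and thioredoxin metabolism. It also draws macrophages and neutrophils into the airspaces through chemokines and interleukin 6 (IL-6), a cytokine that signals through Stat3. The AhR and Nrf2 responses follow each exposure within hours, whereas cell recruitment and repair build up over repeated exposures. Comparing 12 with 6 weeks at the same hour after the last cigarette therefore asks which transcripts depend on how long smoke was breathed, and the sham groups show what time, age and restraint do without it.

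Values are log2 ratios of the lung (Cy5) to a purchased universal mouse reference RNA (Cy3), so that a value of 0 means an equal signal in lung and reference, and a difference of 1 between groups means 2-fold. Median lung signal over local background ran from 2.64 to 7.98 on the 9 smoke arrays. The share of probes above the threshold for a measurable signal ran from 48.4% (6 week smoke m4) to 93.4%. Sftpc, surfactant protein C, and the other lung markers checked were above that threshold on 9 of 9 smoke arrays. The array labelled 6 week sham m2 stands apart, with a Cyp1a1 ratio of 6.46 inside the smoke range of 5.07 to 8.06 and far from the other 6 week sham arrays. It was kept under its label, and several values that rest on it are also given without it. Through the common spread and the run terms it also enters the smoke differences and their SE. Lung signal was at the scanner limit on at least 1 smoke array for 454 of the 17560 tested probes, and on all 9 for 47 of them.

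Between 12 and 6 weeks of smoke, 1 of 17560 probes passed an adjusted p of 0.05 in limma (0.00569%), and none passed in the lower direction. The probe was that of Kif20a, a mitotic kinesin needed for the last step of cell division. At an unadjusted p of 0.05 there were 447 higher probes (2.55%) and 617 lower ones (3.51%), or 1064 in all (6.06%). No probe passed between 12 and 6 weeks of sham (smallest adjusted p = 0.126 in limma). At an unadjusted p of 0.05 there were 1205 probes (6.86%) in sham, 2.73% higher and 4.13% lower at 12 weeks. None passed in the test of the smoke difference minus the sham difference either, where Kif20a came nearest (adjusted p = 0.0527 in limma, 854 probes or 4.86% unadjusted, 2.45% higher and 2.41% lower). Without 6 week sham m2 these last counts were again 0, with 1293 and 853 probes at an unadjusted p of 0.05. The adjusted p of Kif20a for smoke minus sham was then 0.197 in limma.

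The 95% interval of the smoke difference reached a median of 0.34 on the log2 scale to either side of the estimate, and lay inside 2-fold in either direction for 16529 probes (94.1%) and inside 1.5-fold for 12057 (68.7%). Estimated differences over 2-fold were found for 29 probes between the smoke groups and for 53 between the sham groups. Across the 17560 probes, the differences in smoke and in sham correlated with r = 0.21, or rho = 0.14, which is a description over probes that are not independent and share the run terms of the model.

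**Figure D1:**
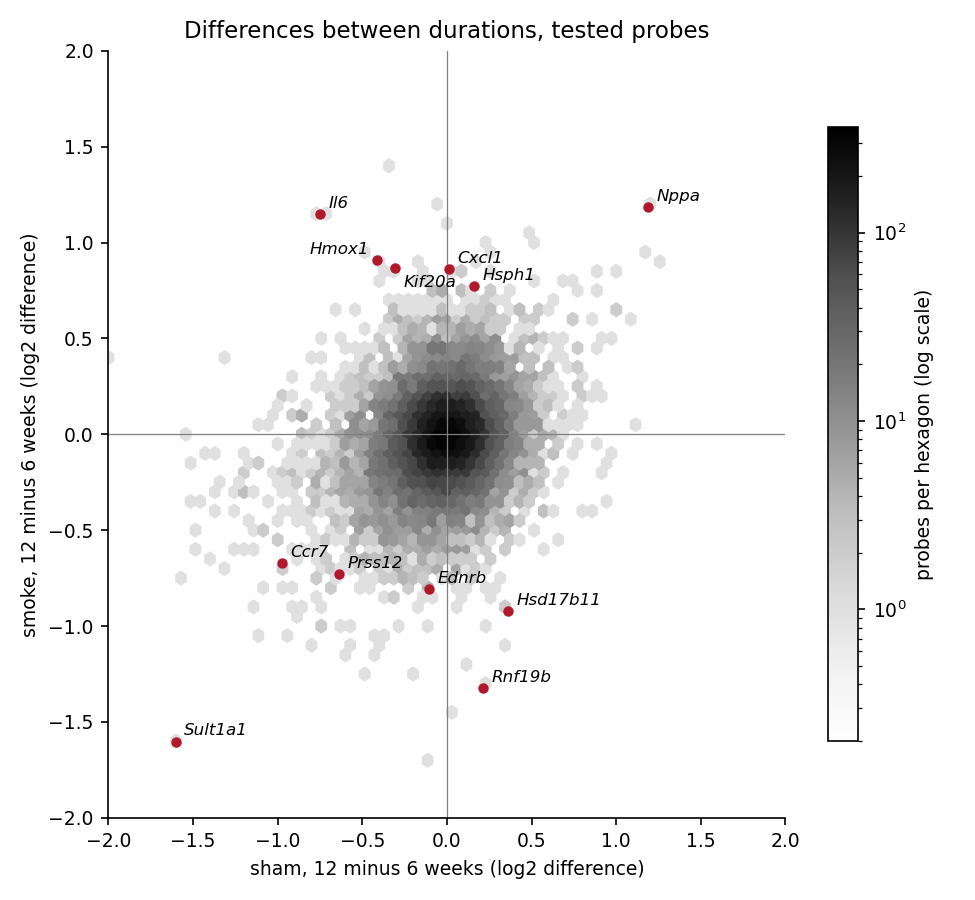
Each hexagon counts probes by their difference in sham (x axis) and in smoke (y axis), 12 minus 6 weeks, on the log2 scale, and red points mark 12 named genes. Most probes lie within 0.5 of 0 on both axes, Il6 lies at 1.15 in smoke and -0.75 in sham, Sult1a1 and Nppa lie far out in the same direction on both, and 1 probe lies outside the plotted range of 2 on either side.

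Kif20a had log2 ratios of -3.35, -3.87, -2.92 and -3.48 in the 4 lungs of 12 week smoke. In 6 week smoke they were -4.26, -4.45, -4.21, -4.70 and -4.21. Every 12 week smoke lung was above every 6 week smoke lung, and all were far below the reference RNA. Kif20a rose by 0.87 (SE 0.15), or 1.83-fold, with an adjusted p of 0.0447 in limma. Within the 4 runs that held both groups Kif20a differed by 0.58 to 1.29, in a direction that follows from the lack of overlap. In the sham groups it differed by -0.31 (SE 0.14), or -0.25 (SE 0.15) without 6 week sham m2. The 12 week sham lungs were at -3.98 ± 0.35 (SD, n = 5) and those of 6 week sham at -3.71 ± 0.46 (SD, n = 5). The mean of 12 week smoke, at -3.41 ± 0.39 (SD, n = 4), lay above both sham means, and that of 6 week smoke, at -4.37 ± 0.21 (SD, n = 5), lay below them. Lungs of both smoke groups overlapped with the sham lungs, which ran from -4.33 to -3.41 at 12 weeks and from -4.39 to -3.14 at 6 weeks. The call was marginal. It was lost when any 1 of the 9 smoke arrays was left out, with adjusted p from 0.0751 to 0.26 in limma. It passed in 7 of 27 alternative settings, 1 of which was the same fit read at an adjusted p of 0.10. The difference stayed between 0.71 and 0.96 in all of them.

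The other 38 tested genes of the proliferation list did not pass. Their median with Kif20a was 0.17, against -0.05 in sham and -0.01 over all tested probes, and 30 of the 39 were positive. At an unadjusted p of 0.05 there were 4 higher members, Kif20a among them, and no lower one, beside 2.55% of all probes that were higher. The mean ratio over the list, Kif20a included, was -2.69 to -2.50 in the 12 week smoke lungs and -2.86 to -2.72 in the 6 week smoke lungs, groups that did not overlap. In sham this mean was -2.85 to -2.45 at 12 weeks and -2.83 to -2.54 at 6 weeks. Prc1, which bundles the microtubules of the dividing cell, differed by 0.36 (adjusted p = 0.662 in limma). The motor protein Kif11 differed by 0.37 (SE 0.25, adjusted p = 0.92 in limma) and was above the threshold on 1 of 4 arrays of 12 week smoke. The mitotic checkpoint kinase Bub1 was above the threshold on no 12 week smoke array and on 4 of 5 arrays of 6 week smoke, and no direction is drawn from it, since its lung signal alone was at least 1.06-fold lower at 12 weeks while its ratio to the reference differed by 0.36 (SE 0.46) the other way.

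No cytokine or chemokine transcript passed, though 3 of them, Il6, Cxcl1 and the epithelial cytokine Tslp (a difference of 0.44), were higher at 12 weeks without overlap between the smoke groups, as were 0.809% of all probes. Il6, the gene of IL-6, had ratios of -0.27, -0.04, 0.06 and -0.89 in 12 week smoke. In 6 week smoke the ratios were -1.20, -1.51, -1.60, -1.0 and -1.78. The groups did not overlap, and the difference of 1.15 (SE 0.30) corresponds to 2.21-fold, but its adjusted p was 0.585 in limma. Within the 4 runs Il6 differed by 0.72 to 1.85, in a direction that follows from the lack of overlap. In sham it went the other way without passing, by -0.75 (SE 0.29), or -0.55 without 6 week sham m2. The difference between the smoke and sham values was 1.90 (95% interval 1.06 to 2.74), with an adjusted p of 0.593 in limma, and 1.68 without that array. The Il6 probe was dim, above the threshold on 4 of 4 arrays of 12 week smoke and on 3 of 5 arrays of 6 week smoke. When spots marked by the scanner software were left out, which kept 3 of those 5 arrays for this gene, Il6 was the 1 probe that passed, with a difference of 1.56 and an adjusted p of 0.014 in limma.

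Cxcl1, a chemokine that attracts neutrophils, had ratios of -2.86, -2.87, -2.68 and -2.68 at 12 weeks of smoke. At 6 weeks of smoke they were -3.43, -3.79, -3.91, -3.65 and -3.37. The 12 week lungs lay close together and above all 6 week lungs, and the difference was 0.86 (SE 0.22), or 1.82-fold, with an adjusted p of 0.585 in limma. The sham groups both ranged widely, from -4.24 to -3.20 at 12 weeks and from -4.10 to -3.03 at 6 weeks, and differed by 0.01 (SE 0.21). Ccl7, which attracts monocytes, differed by 0.67 (SE 0.20, adjusted p = 0.631 in limma) and in 3 of 4 runs was higher at 12 weeks. Il11, a cytokine of the IL-6 family, differed by 0.36 (SE 0.12, adjusted p = 0.649 in limma). Of the 40 tested inflammatory mediators, 7 were higher and 1 was lower at an unadjusted p of 0.05, beside 2.55% and 3.51% of all probes, and none passed after adjustment. Il6, Cxcl1, Ccl7, Cxcl5, Tslp, Ccl3 and Ccl4 were the higher ones, and the chemokine Cxcl14, at -0.39, the lower one. The median difference over the 40 genes was 0.13 in smoke and -0.02 in sham.

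Socs3, the feedback inhibitor that Stat3 turns on, had ratios of 0.04, 0.49, 0.36 and 0.15 in 12 week smoke and of -0.35, 0.18, -0.08, -0.13 and 0.34 in 6 week smoke. These groups overlapped, and the difference was 0.29 (SE 0.13, adjusted p = 0.818 in limma). The 33 tested genes of IL-6/Stat3 signalling had a median of 0.05 in smoke and -0.08 in sham, with 3 higher and 1 lower at an unadjusted p of 0.05, beside 2.55% and 3.51% of all probes. Ptgs2, the inducible cyclooxygenase, had ratios of 0.74 to 1.58 at 12 weeks and 0.26 to 1.14 at 6 weeks of smoke and differed by 0.45 (SE 0.27, adjusted p = 0.913 in limma). The 14 tested neutrophil markers had a median of -0.11 in smoke and of 0.25 in sham, where 12 of the 14 were positive, and the median of smoke minus sham was -0.30. Of these 14, 4 were above the threshold on all 9 smoke arrays. At an unadjusted p of 0.05 none was higher and 1, Fpr2 (-0.83), lower in smoke, beside 2.55% and 3.51% of all probes. In sham 2 were higher and none lower, beside 2.73% and 4.13%. The 37 tested macrophage and lysosome genes had a median of 0.00 in smoke and 0.07 for smoke minus sham. No member of either list passed. In bulk lung RNA, fewer cells of a type and less RNA per cell cannot be told apart.

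**Figure D2:**
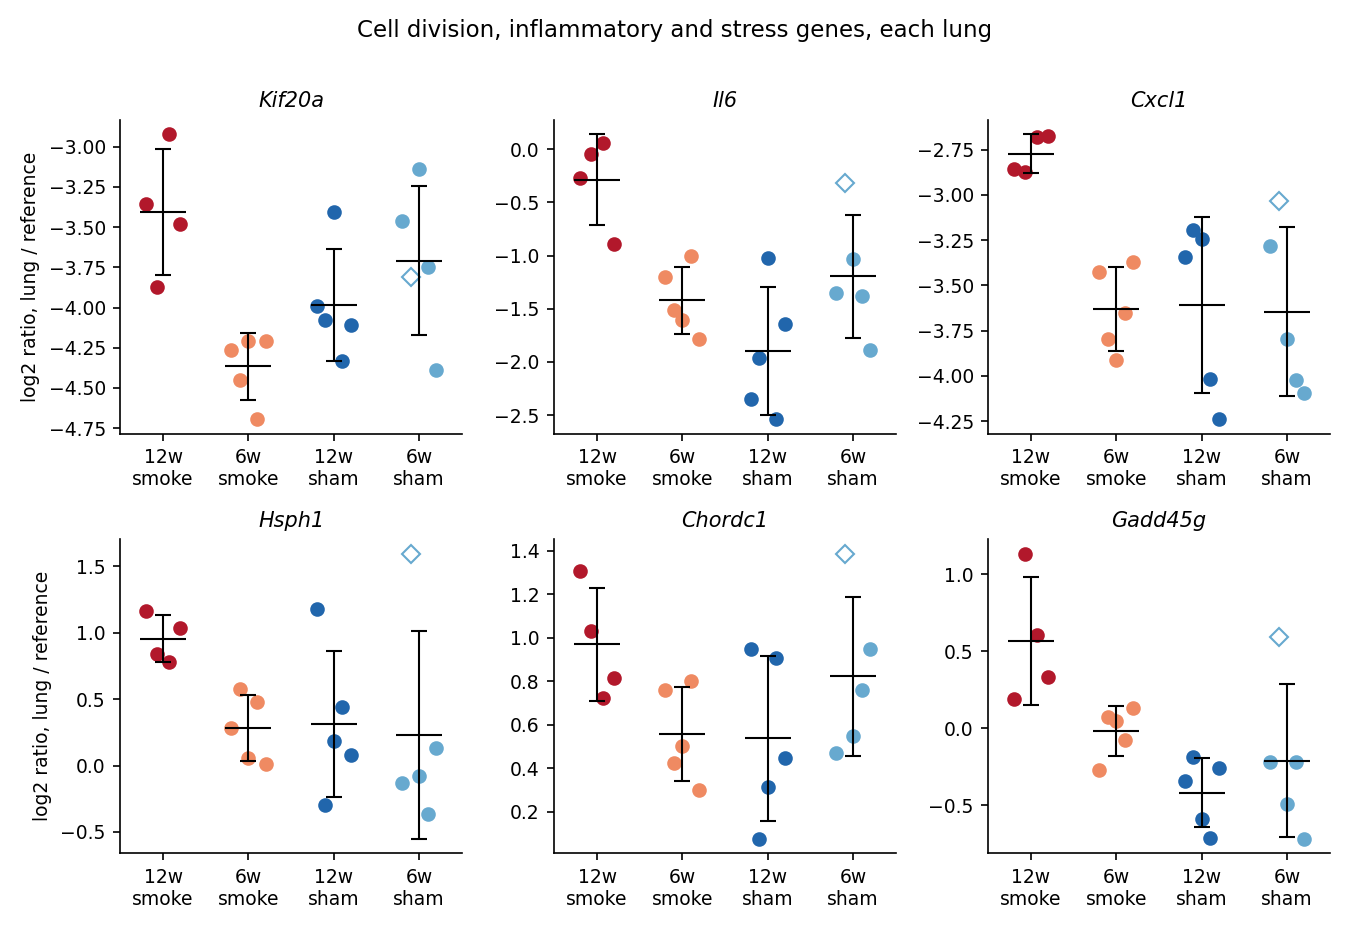
Log2 ratio of lung to reference (y axis) for 6 genes in each lung of the 4 groups (x axis, w for weeks), with bars for the mean and SD, and an open diamond for 6 week sham m2. Kif20a, Il6, Cxcl1, Hsph1 and Gadd45g do not overlap between the 12 and 6 week smoke groups, whereas Chordc1 does, and in sham the same genes overlap.

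No gene that smoke induces through AhR passed between the durations. Cyp1a1 ratios were 5.53, 7.36, 6.47 and 7.04 at 12 weeks of smoke. At 6 weeks they were 5.07, 8.06, 7.65, 7.07 and 7.08, against 1.03 to 2.46 in 12 week sham. The smoke groups overlapped over nearly their whole range and differed by -0.29 (SE 0.63, 95% interval -1.57 to 1.0, adjusted p = 0.992 in limma). Lung signal of Cyp1a1 was at the scanner limit on 2 of 4 arrays of 12 week smoke (m1 and m2) and 1 of 5 arrays of 6 week smoke (m1), and those 3 ratios are understated by an unknown amount. Cyp1b1 had ratios of 1.97, 2.28, 1.63 and 2.32 at 12 weeks and of 1.61, 1.47, 1.57, 2.05 and 1.5 at 6 weeks, and its difference was 0.55 (SE 0.40, adjusted p = 0.929 in limma). It was higher at 12 weeks in 4 of 4 runs, by 0.14 to 0.81. Without 6 week sham m2 in the fit, its smoke difference was 0.49 (SE 0.23, adjusted p = 0.795 in limma). Ahrr, the repressor that AhR itself turns on, had ratios of 1.24 to 2.28 at 12 weeks and 0.61 to 1.62 at 6 weeks and differed by 0.65 (SE 0.38, adjusted p = 0.905 in limma). Without that sham array Ahrr differed by 0.60 (SE 0.26, adjusted p = 0.738 in limma). The 10 tested AhR-responsive genes had a median of 0.19 in smoke, with 1 higher and no lower member at an unadjusted p of 0.05, beside 2.55% and 3.51% of all probes. In sham their median was -0.29, or -0.15 without 6 week sham m2.

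Among Nrf2-responsive genes the differences ran from -0.40 to 0.91. Nqo1, a quinone reductase, had ratios of 0.28, 0.14, -0.06 and 0.17 in 12 week smoke and of -0.08, -0.15, -0.03, 0.68 and 0.12 in 6 week smoke, a difference of 0.15 (SE 0.21, adjusted p = 0.98 in limma). Txnrd1, thioredoxin reductase, was at 0.14 to 0.68 and at 0.30 to 0.84 in these groups and differed by 0.00 (SE 0.14, 95% interval -0.29 to 0.29). For both of them the groups overlapped widely.

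Hmox1, the enzyme that breaks down heme, had ratios of 1.12, 0.67, 1.00 and 0.09 at 12 weeks of smoke. At 6 weeks the ratios were -0.49, -0.47, -0.57, 0.84 and 0.05, so that m4 lay among the 12 week lungs and the other 4 lay below them all. The difference was 0.91 (SE 0.36, adjusted p = 0.766 in limma), and 0.66 to 1.61 within each of the 4 runs with both groups. In sham it was -0.41, or 0.11 without 6 week sham m2, an array with an Hmox1 ratio of 1.49. In a fit chosen after the data were seen, without that array and without 6 week smoke m4, Hmox1 was the 1 probe that passed, with a difference of 1.09 and an adjusted p of 0.00112 in limma. Leaving out only 1 of these 2 arrays gave an adjusted p of 0.462 or 0.631.

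Gclc, the catalytic subunit of the enzyme that makes the glutathione precursor, had ratios of 3.52, 4.29, 4.22 and 3.79 at 12 weeks and of 2.64, 3.45, 3.18, 3.82 and 3.82 at 6 weeks of smoke. It differed by 0.69 (SE 0.31, adjusted p = 0.818 in limma) and was higher at 12 weeks in 4 of 4 runs. Without 6 week sham m2 in the fit, Gclc differed by 0.65 (SE 0.25, adjusted p = 0.701 in limma). Srxn1, sulfiredoxin, differed by 0.53 (SE 0.23, adjusted p = 0.791 in limma) on one probe and by 0.12 (SE 0.17) on a second, dimmer one. The brighter probe differed by 0.50 (SE 0.14, adjusted p = 0.564 in limma) without 6 week sham m2. Of 40 tested Nrf2-responsive genes, 6 were higher and 1 lower at an unadjusted p of 0.05, beside 2.55% and 3.51% of all probes, and none passed after adjustment. The median over the list was 0.07, and 0.14 over its 31 members that were below the scanner limit on all smoke arrays. In sham the median was -0.14, or -0.09 without 6 week sham m2. A list of 73 tested genes that the study picked as smoke genes on these same arrays, and which is therefore no independent evidence, had a median of 0.05. At an unadjusted p of 0.05, 13 of its members were higher and 6 lower, beside 2.55% and 3.51% of all probes, and 45 of the 73 were positive.

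**Figure D3:**
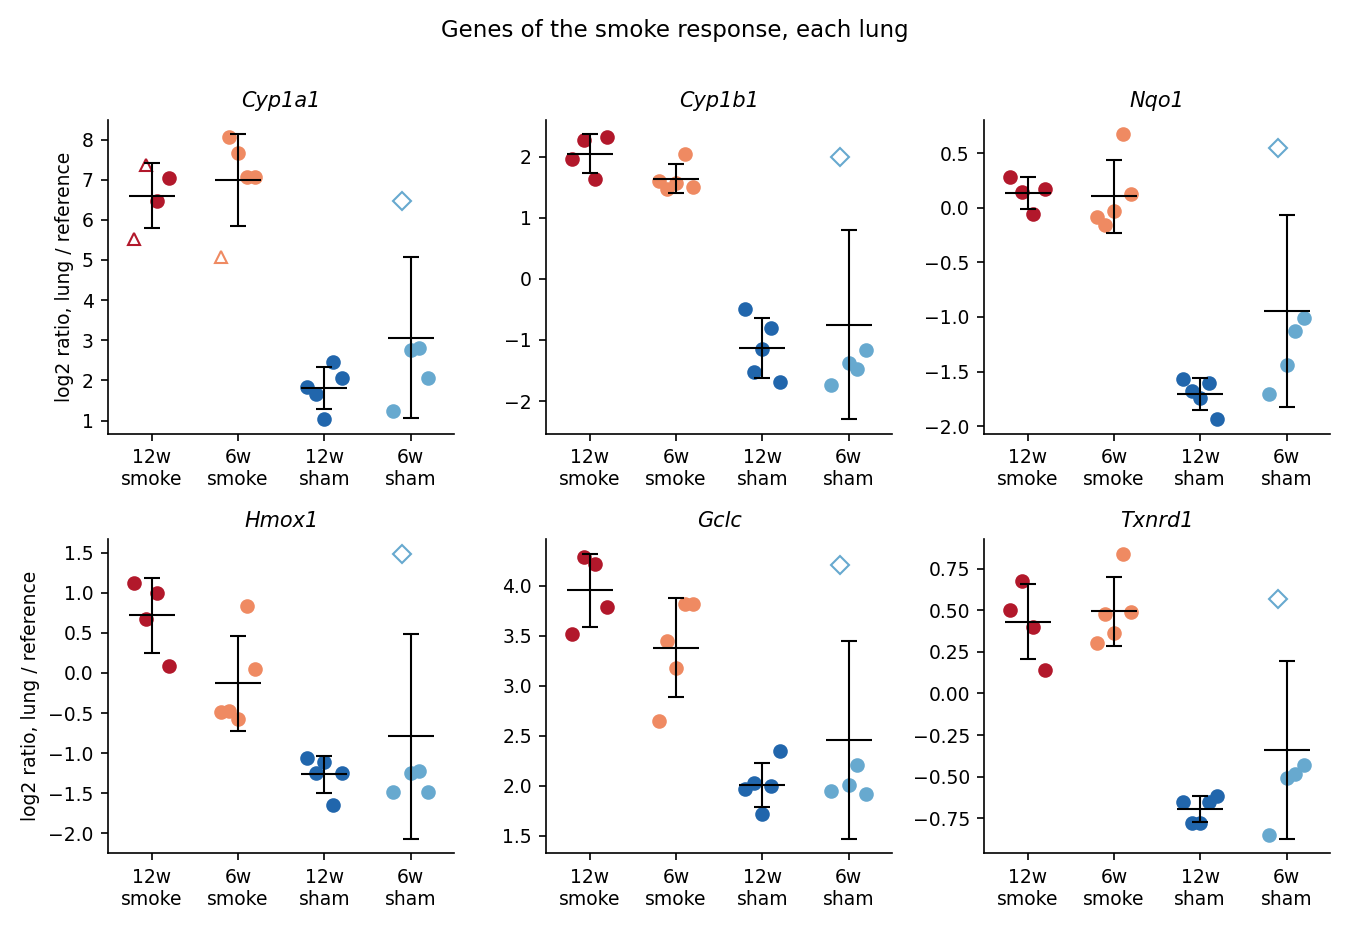
Log2 ratio of lung to reference (y axis) for 6 genes of the smoke response in each lung of the 4 groups (x axis), with the mean and SD. Open triangles mark smoke arrays with Cyp1a1 signal at the scanner limit, and the open diamond is 6 week sham m2, which lies among the smoke lungs for all 6 genes or above them.

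Of the 25 tested chaperone genes, which heat shock factors turn on when proteins unfold, 8 were higher and none lower at an unadjusted p of 0.05, beside 2.55% and 3.51% of all probes. None passed after adjustment, and 22 of the 25 were positive. The median was 0.16 in smoke and -0.07 in sham, or -0.01 without 6 week sham m2. The mean ratio over the list was 0.27 to 0.38 in 12 week smoke and 0.09 to 0.35 in 6 week smoke, where m2 alone reached into the 12 week range. Hsph1, a cochaperone of Hsp70, had ratios of 1.16, 0.84, 0.78 and 1.04 at 12 weeks and of 0.28, 0.58, 0.05, 0.48 and 0.01 at 6 weeks. The smoke groups did not overlap, and the difference was 0.77 (SE 0.27, adjusted p = 0.662 in limma). Its sham difference was in the same direction, at 0.16, or 0.42 (SE 0.23) without 6 week sham m2. Chordc1, a partner of Hsp90, had ratios of 1.31, 1.03, 0.73 and 0.81 at 12 weeks and of 0.76, 0.43, 0.51, 0.80 and 0.30 at 6 weeks. It differed by 0.48 (SE 0.14, adjusted p = 0.613 in limma), and by -0.21 in sham, or -0.12 without 6 week sham m2. Hspa1a, the inducible Hsp70, had ratios of 3.16 to 3.90 and of 2.42 to 3.58 and differed by 0.47 (SE 0.44, adjusted p = 0.962 in limma), with 3 of 4 runs positive.

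Heat shock factors bind inverted repeats whose core was searched as GAANNTTC, which reads the same on both strands. The promoters of Hsph1 and Chordc1 are shown because these members had the smallest p-values of the list. They span an annotated start in RefSeq (GRCm38.p6; for Hsph1, 1 of 2 listed), 5′ to 3′ on the gene's strand, with each match in capitals.
Hsph1, chr5:149636266-149636565, minus strand: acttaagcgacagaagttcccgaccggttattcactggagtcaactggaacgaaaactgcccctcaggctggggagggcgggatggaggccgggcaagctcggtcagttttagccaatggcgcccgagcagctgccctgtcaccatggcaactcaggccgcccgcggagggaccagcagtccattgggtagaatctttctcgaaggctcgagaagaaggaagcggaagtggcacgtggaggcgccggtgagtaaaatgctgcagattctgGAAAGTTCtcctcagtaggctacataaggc
Chordc1, chr9:18292017-18292316, plus strand: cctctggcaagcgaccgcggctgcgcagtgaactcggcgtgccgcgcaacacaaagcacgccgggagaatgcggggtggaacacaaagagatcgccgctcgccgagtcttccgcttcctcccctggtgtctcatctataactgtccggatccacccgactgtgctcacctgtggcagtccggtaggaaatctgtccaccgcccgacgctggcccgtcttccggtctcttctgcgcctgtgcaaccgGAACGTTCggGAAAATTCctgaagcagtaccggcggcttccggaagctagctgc
The motif occurred in 7.86% of 32851 promoters and in at least 1 promoter of 9.04% of 27025 genes, and of the 21 tested chaperone genes that had an entry 11 held it in at least 1 promoter. Of the 8 members that were higher at an unadjusted p of 0.05, 6 had an entry and 4 of these held the motif. A match describes the letters in this window and is not a measured site.

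Gadd45g, a gene induced by growth arrest and DNA damage, had ratios of 0.19, 1.13, 0.61 and 0.33 at 12 weeks of smoke and of -0.27, 0.08, 0.05, -0.07 and 0.13 at 6 weeks. The groups did not overlap, and it differed by 0.59 (SE 0.17, adjusted p = 0.613 in limma), with -0.26 (SE 0.16) in sham, or -0.08 without 6 week sham m2. The 19 tested genes of the p53 and growth arrest list had a median of 0.06, with 11 positive. Gadd45g was the 1 member higher at an unadjusted p of 0.05 and none was lower, beside 2.55% and 3.51% of all probes.

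In all, 330 probes (1.88%) had no overlap between the 12 and 6 week smoke groups, 142 of them higher (0.809%) and 188 lower (1.07%) at 12 weeks. The named genes are Kif20a and those with the smallest p-values among these probes, 12 in each direction, so that their size is a description and no test. On the higher side Zfp282, a zinc finger protein, had ratios of 0.05 to 0.47 at 12 weeks and of -1.22 to -0.01 at 6 weeks. It differed by 0.73 (SE 0.18, adjusted p = 0.585 in limma), with 6 week smoke m1 lowest. Mrps6, a protein of the mitochondrial ribosome, differed by 0.46 (SE 0.12) and Fam98b, of the tRNA ligase complex, by 0.43 (SE 0.11), both with an adjusted p of 0.585 in limma. Their common direction in 4 of 4 runs follows from the lack of overlap. In sham Mrps6 differed by 0.13, or 0.23 (SE 0.10) without 6 week sham m2, and Fam98b by 0.11, or 0.13. Banp (0.49), Fam110c (0.80), the homeobox gene Nkx6-1 (0.89) and Lhfpl2 (0.67) completed the higher side, with Anxa13, for which no difference is given. Lhfpl2 was above the threshold on 1 of 4 arrays at 12 weeks, and Anxa13 on none.

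On the lower side the largest difference was that of Rnf19b, a ubiquitin ligase. Its ratios were -0.87, -0.43, -2.95 and -0.45 at 12 weeks of smoke and 0.77, -0.31, 0.28, 0.17 and -0.24 at 6 weeks. The 12 week lungs were all below the 6 week lungs, with m3 far below the others, and the difference was -1.32 (SE 0.31, adjusted p = 0.585 in limma). The scanner software had marked the Rnf19b spot on all 12 week smoke arrays and on 4 of 5 arrays of 6 week smoke, and likewise that of Hsd17b11 and Bcas1 on all 9. It had marked those of Slc30a8 and Chst2 on 8 of 9 smoke arrays, and those of Zfp282, Fam110c, Nkx6-1 and Lhfpl2 on 3 of 4 arrays of 12 week smoke. Among genes given elsewhere in the text, the spots of Siglecf, Mfap5, Col14a1, Nppa and Robo2 were marked on all 9, that of Sult1a1 on 8, and those of Cyp1a1, Ahrr, Prss12 and Ccr7 on every array of 12 week smoke. What these marks mean for the values was not tested. Hsd17b11, a dehydrogenase of lipid droplets, differed by -0.92 (SE 0.24, adjusted p = 0.585 in limma), with 6 week smoke m1 at 2.03 and the other 6 week lungs at 0.34 to 0.83. The zinc transporter Slc30a8 (-0.73), the sulfotransferase Chst2 (-0.83), Bcas1 (-0.72) and the ubiquitin ligase Neurl1a (-0.59) were likewise lower with adjusted p of 0.613 in limma. Slc35b2, the Golgi carrier of the sulfate donor, differed by -0.30 (SE 0.08), from -0.37 to -0.26 within runs. Cdipt, phosphatidylinositol synthase, differed by -0.29 (SE 0.09), from -0.57 to -0.05 within runs. Map4k4, a kinase upstream of Jnk, differed by -0.41 (SE 0.12), and by -0.15 on a second probe. Slc24a4 and 9030624G23Rik were above the threshold on no 12 week smoke array, and their lung signal was at least 1.26-fold and at least 1.14-fold lower there.

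Prss12, the serine protease neurotrypsin, was lower at 12 weeks without smoke as well, where it did not pass either. Its ratios were 2.58, 3.01, 2.34 and 2.81 at 12 weeks of smoke and 3.64, 3.59, 3.56, 3.11 and 3.11 at 6 weeks. The difference was -0.73 (SE 0.22, adjusted p = 0.613 in limma), and that of the sham groups was -0.64 (SE 0.20), so that smoke minus sham came to -0.09 (95% interval -0.69 to 0.51). Among other genes of the lower side, sham values were also negative for Slc30a8 (-0.24), Bcas1 (-0.22), Slc35b2 (-0.15) and Cdipt (-0.02). They were positive for Hsd17b11 (0.36), Chst2 (0.24), Rnf19b (0.21) and Neurl1a (0.09). Map4k4 was at -0.15 in sham, and at 0.18 on its second probe.

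**Figure D4:**
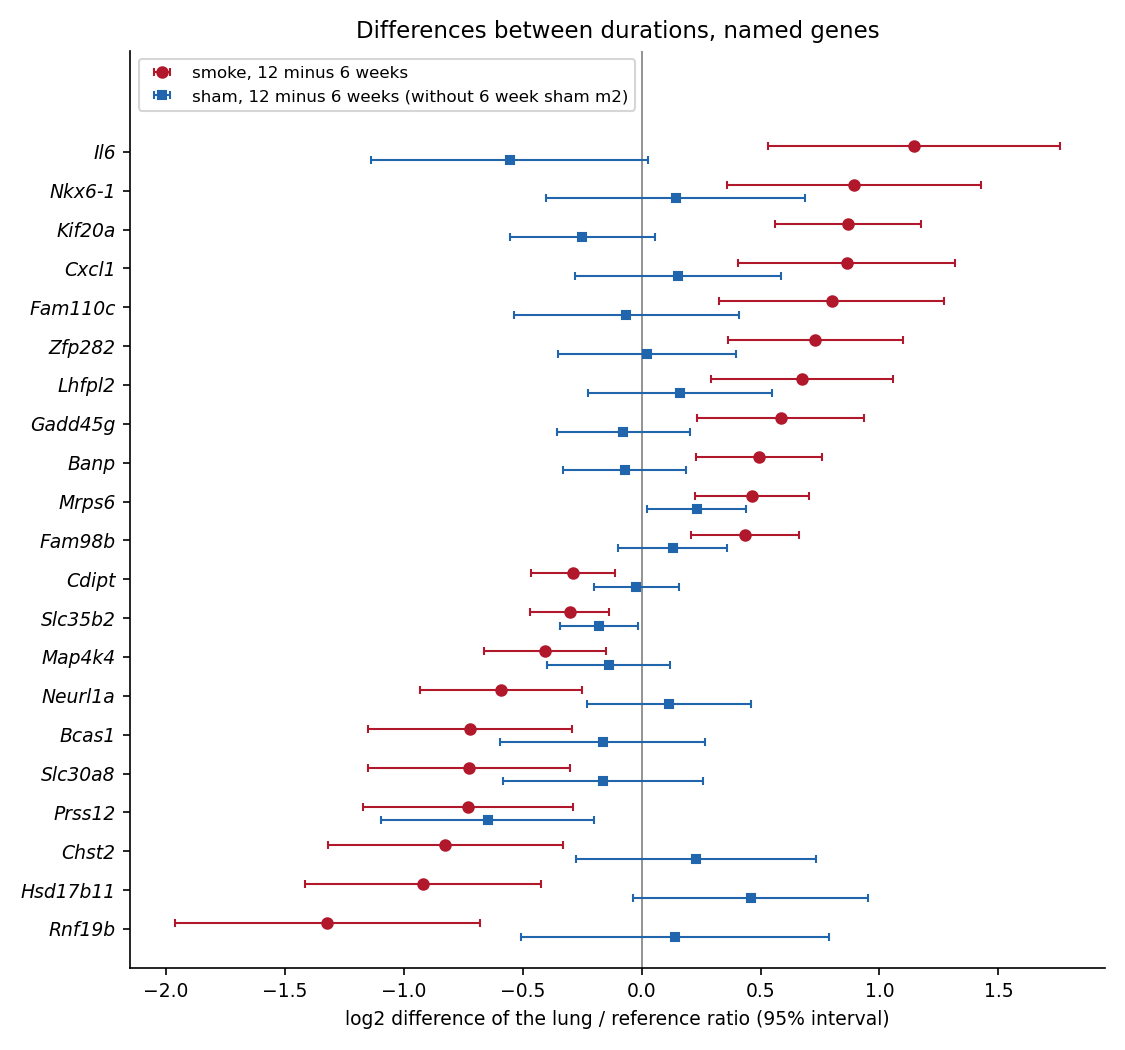
Log2 difference, 12 minus 6 weeks, with its 95% interval (x axis) for 21 named genes (y axis), in smoke (red) and in sham without 6 week sham m2 (blue). The red intervals exclude 0 because the genes were chosen on them, and the blue interval of Prss12 lies beside its red one.

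Several lists of lung cell markers had negative medians in smoke and in sham. The 25 tested endothelial genes had a median of -0.24 in smoke and of -0.29 in sham, with 1 higher and 4 lower in smoke at an unadjusted p of 0.05, beside 2.55% and 3.51% of all probes. The 18 of them below the scanner limit on all smoke arrays had medians of -0.27 in smoke and -0.29 in sham, with none higher and 4 lower in smoke by the same threshold. Ednrb, the endothelin receptor of lung capillaries, had ratios of 2.18 to 2.87 at 12 weeks and of 2.67 to 4.23 at 6 weeks of smoke, and differed by -0.81 (SE 0.37, adjusted p = 0.818 in limma). The 1 higher member was Flt1, a receptor for vascular endothelial growth factor. Its lung signal was at the scanner limit on 2 of 5 arrays of 6 week smoke (m1, at 2.78, and m2), so that these ratios are understated by an unknown amount and no difference is given. Ciliated cell genes (19 tested) had medians of -0.18 in smoke and -0.26 in sham, and alveolar type II cell genes (18 tested) of -0.16 and -0.12. The receptor Ager, a marker of alveolar type I cells, differed by -0.39 in smoke (SE 0.18, adjusted p = 0.818 in limma) and by -0.27 in sham. Sftpc and the secretoglobins Scgb1a1 and Scgb3a2, the main products of alveolar type II and club cells, were at the scanner limit on every smoke array, so no difference is given for them. Over the 12 club and secretory cell genes below that limit the median was -0.12 in smoke and 0.17 in sham. These are bulk differences and the share of each cell type in the piece of lung was not measured.

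Of 26 T and NK cell genes tested, 2 were higher and 4 lower in smoke at an unadjusted p of 0.05, beside 2.55% and 3.51% of all probes, and the median was -0.18, against -0.07 in sham. The higher ones were the T cell genes Cd3g (0.44) and Cd5 (0.30), and the lower ones Eomes, Ncr1 (-0.73), Cd7 (-0.47) and Ccr7. Of the 26 genes 8 were positive, and the other CD3 genes Cd3e (-0.20) and Cd3d (-0.15) were negative. Without overlap between the smoke groups, 2 members, Cd3g and Cd28 (0.29), were higher and none was lower, beside 0.809% and 1.07% of all probes. Ccr7, the homing receptor of T cells and migrating dendritic cells, had ratios of 0.26 to 2.18 at 12 weeks and of 0.97 to 2.45 at 6 weeks of smoke. It differed by -0.67 (SE 0.32, adjusted p = 0.824 in limma) in smoke and by -0.97 (SE 0.31, adjusted p = 0.589 in limma) in sham. The MHC class II gene H2-Eb1 differed by -0.44 in smoke (SE 0.16, adjusted p = 0.683 in limma) and by -0.35 in sham. Another class II gene, H2-Ab1, differed by 0.11 in smoke. The 19 tested dendritic cell and MHC class II genes had a median of -0.04 in smoke, with 8 positive. In sham the median was -0.15, or -0.06 without 6 week sham m2. At an unadjusted p of 0.05 none of the 19 was higher in smoke and 2, Ccr7 and H2-Eb1, were lower, beside 2.55% and 3.51% of all probes. Siglecf, a receptor of alveolar macrophages and eosinophils, had ratios of 1.30 to 1.85 at 12 weeks and of 1.49 to 3.26 at 6 weeks of smoke. It differed by -0.77 (SE 0.33, adjusted p = 0.793 in limma), and by -0.43 in sham, or -0.28 without 6 week sham m2. This was the lowest smoke value of the 37 tested macrophage and lysosome genes, of which 20 were positive and Abca1 (0.67) the highest. At an unadjusted p of 0.05, 1 of the 37, Trem2 (0.34), was higher and 1, Siglecf, lower, beside 2.55% and 3.51% of all probes. Eomes, a transcription factor of NK and memory T cells, was above the threshold on no array of 12 week smoke and on 4 of 5 arrays of 6 week smoke, and its lung signal was at least 1.5-fold lower at 12 weeks.

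Of 49 collagen and fibroblast genes tested, 5 were lower and none higher in smoke at an unadjusted p of 0.05, beside 3.51% of all probes, and the median was -0.06. In sham 5 were higher and 1 lower, beside 2.73% and 4.13% of all probes, and 33 of the 49 were positive. The sham median was 0.04, or 0.02 without 6 week sham m2. Mfap5, a protein of elastic fibre microfibrils, differed by -0.73 (SE 0.28, adjusted p = 0.766 in limma) and Col14a1 by -0.67 (SE 0.30). Outside this list Robo2, a guidance receptor and one of the study's smoke genes, differed by -0.90 (SE 0.33, adjusted p = 0.705 in limma). Muscle genes (32 tested) had medians of 0.19 in smoke and 0.24 in sham. Their largest value was that of Nppa, the atrial natriuretic peptide of cardiac muscle, at 1.18 (SE 0.67) in smoke and 1.19 in sham, with ratios from -0.44 to 2.59 among the 5 lungs of 6 week smoke. The sulfotransferase Sult1a1 differed by -1.60 in smoke (SE 0.71) and by -1.60 in sham, with ratios of 1.67, 0.07, 4.36 and 4.22 in the 12 week smoke lungs, and neither value passed. Within runs its smoke difference went from -5.61 to 0.48.

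**Figure D5:**
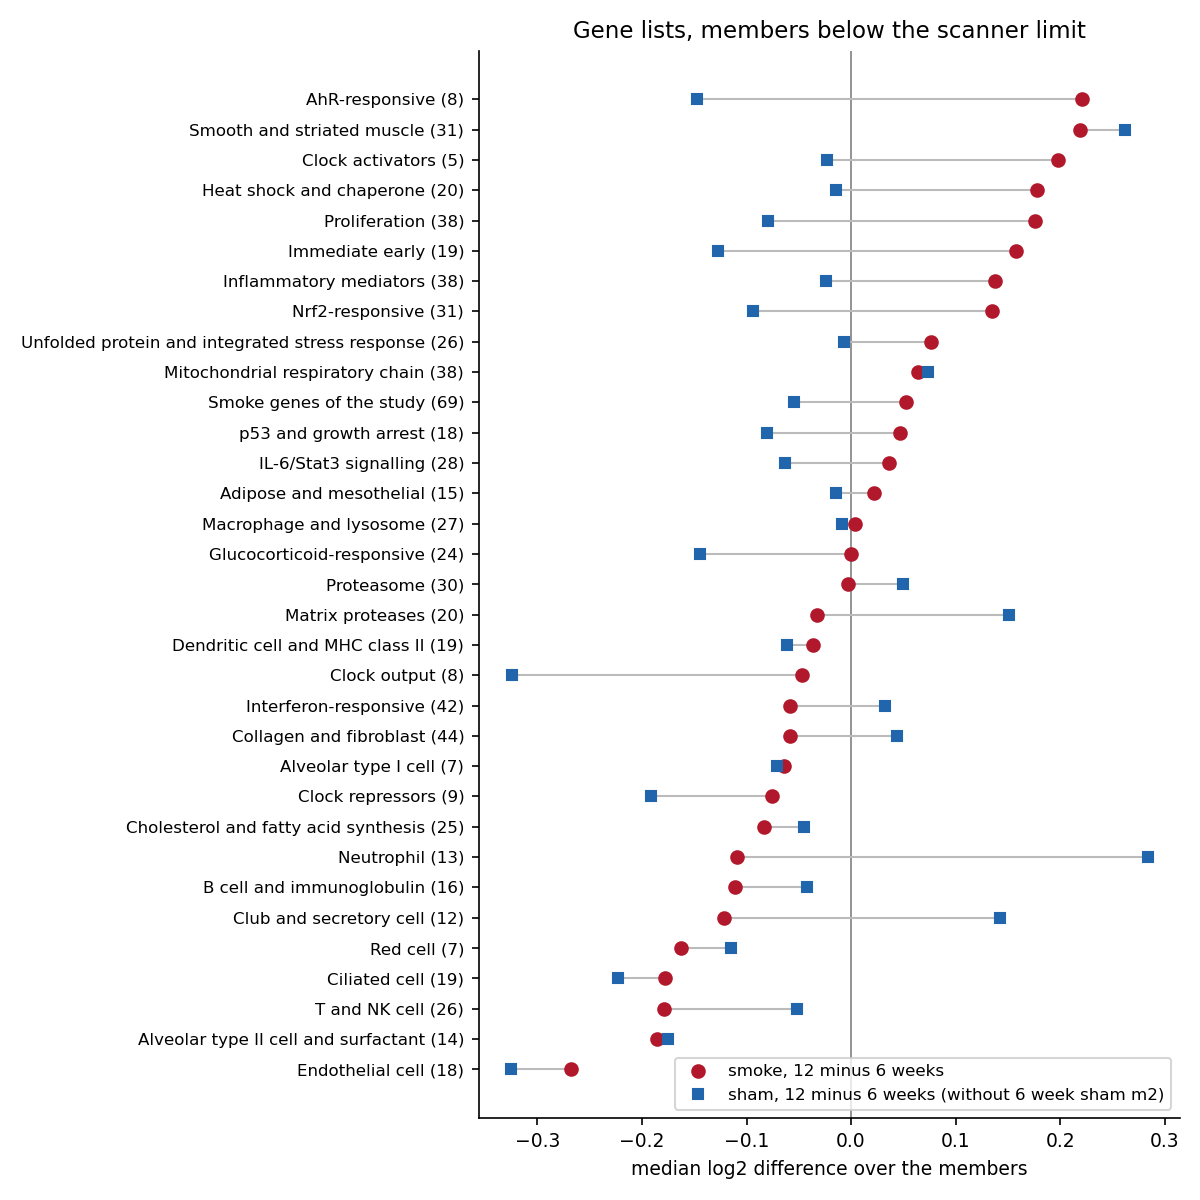
Median log2 difference, 12 minus 6 weeks (x axis), over the members of each of 33 gene lists that were below the scanner limit on all smoke arrays (y axis, number of members in parentheses), in smoke (red) and in sham without 6 week sham m2 (blue). AhR-responsive, heat shock, proliferation and Nrf2-responsive genes lie above 0 in smoke and below it in sham, whereas endothelial, ciliated and alveolar type II cell genes lie below 0 in both.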

How the data were processed

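Lung RNA (Cy5) and a universal mouse reference RNA (Cy3) were hybridised to 39 Agilent mouse oligonucleotide arrays, 1 mouse each. For each channel the authors deposited spot and background intensities as ImaGene read them, without normalization. The authors also deposited log2 ratios normalized by LOWESS within arrays, used here as an alternative. Intensities were corrected with normexp (offset 50) and normalized by loess within arrays, and spots of a probe were averaged. A probe was tested (17560 of 20868) if its lung signal exceeded the mean plus 3 SD of the negative controls, trimmed by 5% at either end, on at least 4 arrays of any group. One limma 3.58.1 fit (R 4.3.3) held the 8 groups and the 5 runs read from the exposure labels as a block, with Benjamini-Hochberg adjustment at 0.05. The date of hybridization is not in the labels used here. Replicates are separate mice, and their number limits the precision. Lists are described by counts and medians, with 1 probe per gene, the brightest. Named genes were the 12 per direction that passed or, to fill places, had the smallest p among probes without overlap, the 3 members of each list with the largest difference, and genes the study names. Genes outside this rule were chosen after their values were seen. The members and lists were chosen with earlier results of these data known. The code was tested on simulated data.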

Additional observations from a re-analysis of the deposited data

Results flagged for a closer look

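Of 212 sets of values checked (48 genes and 5 list means in 4 groups), 20 held 1 lung far from the others of its group. Chance flags about 1 in 20 groups. The array labelled 6 week sham m2 was the high one for Cyp1b1 (2.00), Ahrr (2.52), Hmox1 (1.49), Gclc (4.21), Srxn1 (1.04), Hsph1 (1.59), Hspa1a (4.59) and Mrps6 (-0.52). It was also high for the mean ratio of the AhR-responsive list (1.92) and of the chaperone list (0.48).

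Among the smoke lungs, 6 week smoke m1 was high for Hsd17b11 (2.03) and Slc30a8 (0.46) and held the lowest Flt1 ratio (2.78), a value understated by an unknown amount because that spot was at the scanner limit. The lung 6 week smoke m4 was high for Cyp1b1 (2.05), and 6 week smoke m2 was high for the chaperone list mean (0.35). The lowest chaperone list mean of 12 week smoke, 0.27 in m3, stood apart from the other 3 lungs at 0.38. Among the sham lungs, 12 week sham m1 was high for Chst2 (1.40) and Hspa1a (2.74), 12 week sham m4 for the AhR-responsive list mean (0.49), and 6 week sham m4 was low for Lhfpl2 (-2.08). The part of technical or biological causes in these values was not tested.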

How the results depend on the processing

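The smoke count of 1 became 0 with local background subtracted, median centring, scaling between arrays, spot means, no filter on dim probes, no run block, runs as a random block, the 4 groups without a break alone or the groups of the contrast alone. It ranged from 0 to 1 over the 10 fits that each left out 1 array, and was 0 without any 1 of the 9 smoke arrays. The sham count was 7 when spots marked by the scanner software were left out, and 0 to 1 with 1 array left out (1 without 12 week sham m4). The count for smoke minus sham was 1, Kif20a, with no background correction, with probes above the threshold on all 9 smoke arrays, with array weights and at an adjusted p of 0.10, and 0 to 1 with 1 array left out (1 without 12 week sham m3 or 6 week sham m5). Txnrd1, at 0.00, was -0.0696 with median centring, -0.0377 with the authors' ratios, -0.0832 with spot means, -0.0642 without the run block, -0.0267 with a random block and -0.0465 with array weights, and -0.0809 to 0.101 with 1 array left out. Cyp1a1 was -0.774 to 0.0559 with 1 array left out, and above 0 only without 12 week smoke m1. Without 6 week smoke m4 and 6 week sham m2 together, a choice made after seeing the data, Kif20a had an adjusted p of 0.0565 in limma. No paired analysis was possible by replicate number because these numbers follow accession order and mark no shared animal or day, and arrays were instead tied by the run, the block of the reported fit. Causes of these changes were not tested. Signals near background limit Il6, Kif11 and the probes given by a bound, and the scanner limit those of Cyp1a1, Flt1 and the main secretory products.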
